A study of Mus musculus with 39 samples.

Results

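Astrocyte-enriched cells from the PFC of defeated mice were compared with those of control mice, whatever the behavioural outcome of the stress. Libraries whose titles give PFC with the susceptible or the resilient class were pooled as defeated, which gave 11 libraries, 6 susceptible and 5 resilient. They were set against the 6 PFC libraries labelled control, so that the comparison rests on 17 of the 39 RNA sequencing libraries of the series. The other 22 libraries, 15 defeated and 7 control, carry the label NAc (nucleus accumbens) and enter only where the defeat effect in PFC is set against that in NAc. Defeated mice were males that went through chronic social defeat stress, and control mice were males of the same series; their strain, age and alleles are not stated in the labels. PFC, which the labels leave as an abbreviation, is taken to mean prefrontal cortex. Per the labels' protocols, cells were captured with magnetic beads against ACSA-2, a surface epitope on the sodium pump subunit encoded by Atp1b2, and the protocol text names NAc tissue for every library although the tissue label of these 17 reads PFC. Each library carries a mouse number of its own, equal to its sample number, and no label ties mice to cages, litters or days. In 16 cases an odd PFC number and the next even NAc number have the same condition (16 of 16), and the labels do not say whether such a pair is 1 mouse. The p-values thus describe variation from library to library, part of which may be technical.

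In chronic social defeat a male mouse is repeatedly attacked by a larger aggressor and kept in sensory contact with it, and a later social test sorts the animals into susceptible and resilient. Astrocytes of the prefrontal cortex take up glutamate and GABA, buffer potassium, form gap-junction networks and endfeet on vessels, and supply neurons with lactate and cholesterol. Lower levels of astrocyte proteins such as GFAP in the prefrontal cortex are a recurring description in human depression post mortem and in stressed rodents.

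The libraries held 1222948 to 20332497 counts in genes in defeated mice and 5801113 to 28212160 in control mice. Means were 8800077 ± 6439386 counts in defeated and 15222594 ± 7967212 in control libraries (SD, n = 11 and 6; two-sided exact permutation p = 0.101, Benjamini-Hochberg p = 0.29 over 3 library measures). Counts cover whole gene spans, introns included, so a background cover was read from 1478 olfactory, vomeronasal and trace-amine receptor genes, most of them normally off in the brain. It is given as a percent of the cover that a library's counts would give if spread evenly over all genes. This background was 46.9 ± 19.7% in defeated and 50.3 ± 17.8% in control libraries (SD, n = 11 and 6; exact permutation p = 0.738). It followed the sample number more than the group: it ran from 13.4% to 61.0% in the 7 libraries numbered 1 to 15 (5 defeated, 2 control) and from 46.0% to 71.3% in the 10 numbered 17 to 47 (6 defeated, 4 control). The first principal component held 49.6% of the variance. On it 6 of the 7 libraries numbered up to 15, together with susceptible replicate 6 at -28.9, had negative values. Resilient replicate 3, numbered 15, lay between at 4.90, and the other libraries numbered from 17 lay at 45.4 or above. The labels do not call the numbers a batch, and the split between 15 and 17 was chosen after the data were seen.

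**Figure D1:**
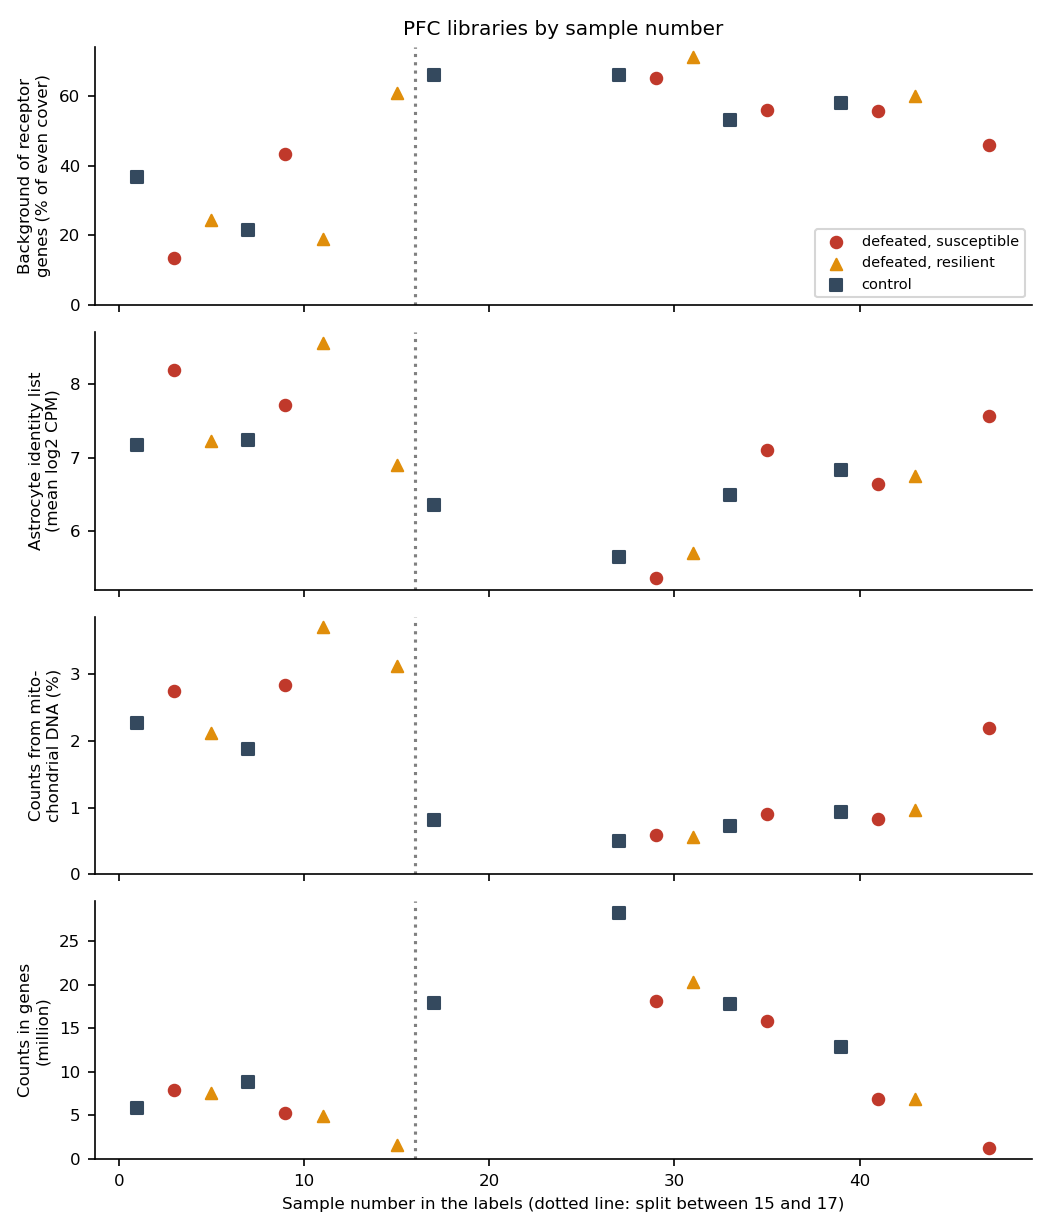
Library measures of the 17 PFC libraries by sample number, with susceptible and resilient libraries of defeated mice as circles and triangles and control libraries as squares. The panels give the background of receptor genes in percent of even cover, the mean log2 CPM of the 26 astrocyte identity genes, the percent of counts from mitochondrial DNA, and the counts in genes. Libraries numbered 1 to 15 have backgrounds of 13.4% to 61.0%, against 46.0% to 71.3% in libraries numbered 17 to 47, and both sides hold defeated and control libraries.

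Astrocyte transcripts were plentiful in both groups. The summed level of 26 astrocyte identity genes was 2444 to 20024 CPM (counts scaled to the library total) in defeated libraries and 3100.4 to 8408 CPM in control libraries, and none of the 26 was at 0 in any of the 17. Other cells were present as well: 16 pan-neuronal genes summed to 1348 to 4154 CPM in defeated and 1542 to 4833 CPM in control libraries. For 18 oligodendrocyte genes the sums were 755 to 2653 CPM in defeated and 906 to 2129 CPM in control libraries, and for 19 microglial genes 223 to 502 and 334 to 589 CPM. None of these sums was corrected for the background cover, which adds to every gene in proportion to its span. The cortical marker Slc17a7, a vesicular glutamate transporter, reached 12.3 to 227 CPM of the library total in the 17 PFC libraries, against 4.37 to 25.9 CPM in the 22 NAc libraries, so the ranges overlapped. In such bulk samples fewer cells of a type and less RNA per cell cannot be told apart.

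No gene passed the test between defeated and control PFC libraries. Of 31440 genes tested with edgeR's quasi-likelihood test, 0 (0.0%) reached a Benjamini-Hochberg adjusted p under 0.05, and the smallest adjusted p was 1.00. An unadjusted p under 0.05 was reached by 170 genes (0.541%), 131 of them higher (0.417%) and 39 lower (0.124%) in defeated mice, where about 5% would be expected if no gene changed. Among the 27042 genes of average log2 CPM above 1, from which genes were named, 132 (0.488%) reached it. DESeq2 and limma-voom also called 0 genes, with 296 and 860 at an unadjusted p under 0.05. Over all genes, 46.6% had a positive and 53.4% a negative log2 fold change, and the middle 90% of fold changes lay between -0.35 and 0.43 log2. The median standard error was 0.28 log2, so a difference of that size in a single gene was not detectable with these libraries. That size is not the limit of detection, as the larger differences given below did not pass either. Every value below is thus a description of these libraries, with its error, and none of the genes or lists named passed the adjusted threshold. Counts of list members in this fit are to be read beside the shares over all genes. Those were 46.6% positive and 0.541% at an unadjusted p under 0.05.

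The susceptible and the resilient mice, taken apart, gave no called gene either. In a fit of the 3 PFC groups, with 32167 genes tested, susceptible against control, resilient against control and susceptible against resilient gave 0 called genes each, with 155, 192 and 184 (0.572%) at an unadjusted p under 0.05. The first and the second of these comparisons share the same 6 control libraries. Defeat effects of both outcomes are therefore set side by side below without counting them as independent.

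Among the 12 genes of smallest p on the higher side, the most complete separation was that of Trp53i13 (chromosome 11, 77508099 to 77515980 in mm10), a p53-inducible membrane protein gene. It had 3.18 to 14.1 CPM (median 7.45) in defeated libraries and 3.06 to 5.85 CPM (median 5.05) in control libraries. The level in 10 of 11 defeated libraries lay above the highest control, the exception being resilient replicate 3 at 3.18 CPM. Its log2 fold change was 0.68 ± 0.22 (SE; 95% interval 0.20 to 1.16), with 0.84 ± 0.25 in susceptible and 0.48 ± 0.26 in resilient mice. Among libraries numbered 1 to 15 the fold change was 1.08 log2, and among those numbered 17 to 47 it was 0.48. Libraries outside the control range were counted for named genes only, so no share over all genes stands beside such counts here and below.

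Of the 12 genes of smallest p on the higher side, Six5, Dmrta2 and Zic4 encode transcription factors, as does Hif3a, given below. Six5 (chromosome 7, 19094594 to 19098549), a homeobox factor next to the myotonic dystrophy kinase gene, had 3.28 to 11.9 CPM (median 7.64) in defeated libraries and 3.50 to 6.03 CPM (median 4.42) in control libraries, with a log2 fold change of 0.77 ± 0.27. Dmrta2 (chromosome 4, 109978053 to 109983687), a factor of cortical progenitors, had 1.27 to 10.7 CPM (median 5.87) in defeated libraries and 2.24 to 4.37 CPM (median 3.04) in control libraries, with a log2 fold change of 0.82 ± 0.30. Zic4 (chromosome 9, 91362413 to 91389348), a zinc finger factor of cerebellar and midline development, had 17.5 to 53.5 CPM (median 29.7) in defeated libraries and 18.5 to 25.4 CPM (median 20.3) in control libraries, with a log2 fold change of 0.60 ± 0.23. For each of Six5, Dmrta2 and Zic4, 10 of 11 defeated libraries lay above the control median, and the groups overlapped. Their fold changes were larger in the libraries numbered 1 to 15, at 1.33, 1.40 and 0.67, than in those numbered 17 to 47, at 0.23, 0.43 and 0.32, a difference that was not tested.

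Hif3a (chromosome 7, 17031507 to 17062427) encodes a hypoxia-inducible factor subunit whose transcript is also known to follow glucocorticoids. Its levels were 34.5 to 86.8 CPM (median 53.5) in defeated libraries and 24.8 to 47.8 CPM (median 37.9) in control libraries, and the log2 fold change was 0.56 ± 0.22 (95% interval 0.10 to 1.02). Myh14 (chromosome 7, 44605803 to 44670843), a nonmuscle myosin heavy chain, had 56.7 to 101 CPM (median 72.9) in defeated libraries and 52.5 to 68.0 CPM (median 58.2) in control libraries. Of the 11 defeated libraries, 9 lay above the highest control, and the log2 fold change was 0.36 ± 0.14. Lcn2 (chromosome 2, 32384633 to 32388252), an iron-siderophore binding protein that reactive astrocytes secrete, had 1.53 to 7.45 CPM (median 2.60) in defeated libraries and 0.874 to 2.36 CPM (median 1.79) in control libraries, with a log2 fold change of 0.89 ± 0.33. Susceptible replicate 2 at 7.45 CPM and resilient replicate 1 at 6.36 CPM were the highest. The secreted factors midkine (Mdk, chromosome 2, 91929805 to 91932297) and adropin (Enho, chromosome 4, 41638144 to 41640324) showed log2 fold changes of 1.04 ± 0.40 and 1.08 ± 0.41. Mdk had 2.60 to 18.7 CPM (median 6.36) in defeated libraries and 2.48 to 5.78 CPM (median 4.25) in control libraries, and Enho had 3.41 to 25.8 CPM (median 8.84) in defeated libraries and 2.42 to 8.78 CPM (median 5.64) in control libraries.

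The remaining 3 of the 12 were haemoglobin chains, which are made in red cells and share reads with near-identical copies. Hba-a1 (chromosome 11, 32283511 to 32284465) had 0 to 24.6 CPM (median 2.95) in defeated libraries and 0.337 to 2.77 CPM (median 1.31) in control libraries, with a log2 fold change of 2.31 ± 0.73. For Hba-a2 the log2 fold change was 2.05 ± 0.69, and for Hbb-bs it was 1.59 ± 0.62. High values came from few libraries: Hba-a1 stood at 24.6 CPM in susceptible replicate 4, 22.9 in resilient replicate 1, 9.45 in susceptible replicate 1 and 7.16 in resilient replicate 2. Susceptible replicate 6, the library of lowest depth, had 0 counts of these 3 genes. The 6 measured genes of the blood list summed to 11.4 to 78.5 CPM in defeated and 13.3 to 28.3 CPM in control libraries.

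**Figure D2:**
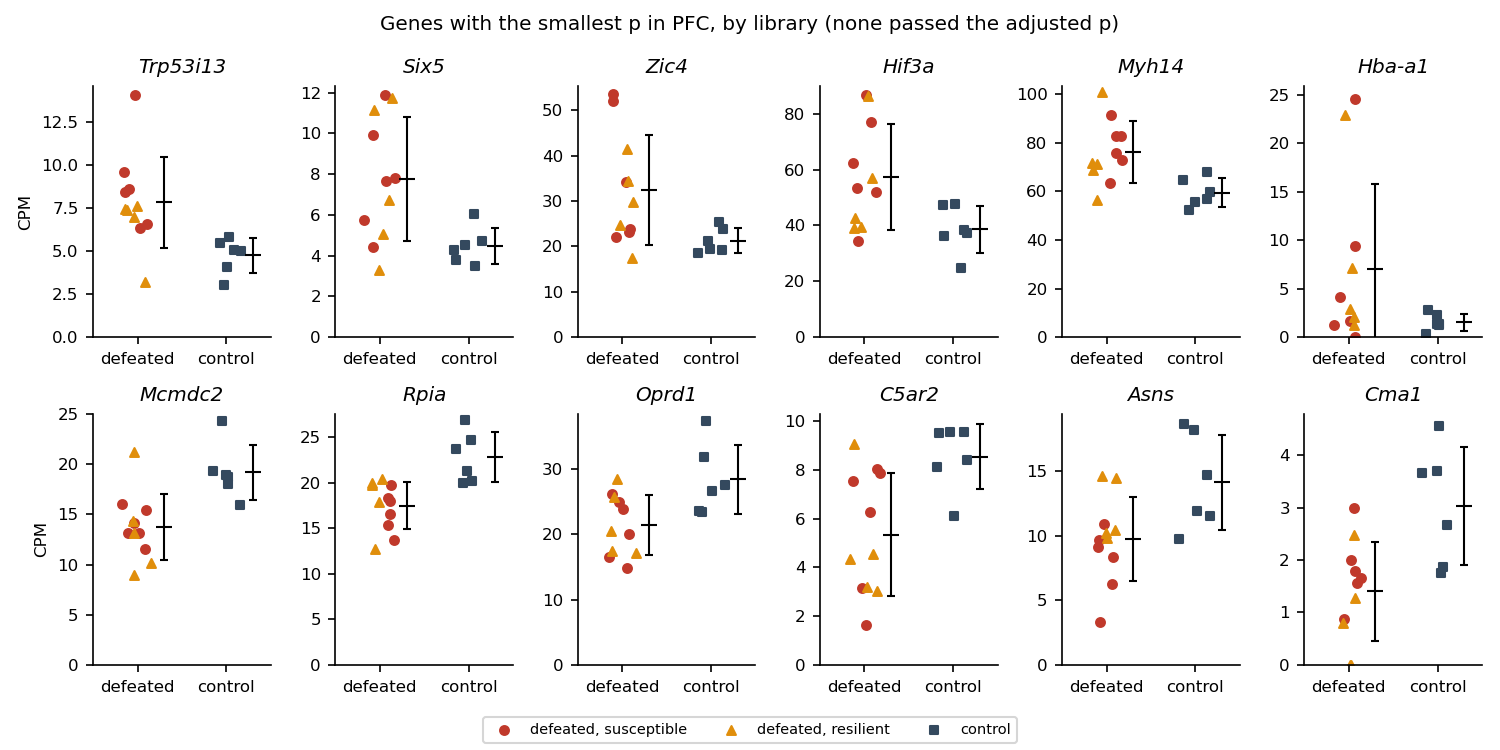
CPM of 12 genes taken from the smallest unadjusted p-values in each direction, per library, with defeated libraries on the left (circles susceptible, triangles resilient) and control libraries (squares) on the right of each panel. Crosses with bars are the mean and SD, and bars are cut at 0. For Trp53i13, 10 of 11 defeated libraries lie above the highest control, and for Rpia 10 of 11 lie below the lowest control.

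Among the 12 genes of smallest p on the lower side, the fullest separation was that of Rpia (chromosome 6, 70765720 to 70792232), ribose-5-phosphate isomerase of the pentose phosphate pathway. Rpia had 12.7 to 20.4 CPM (median 18.0) in defeated libraries and 20.0 to 26.9 CPM (median 22.5) in control libraries. Of the 11 defeated libraries, 10 lay below the lowest control, and the log2 fold change was -0.37 ± 0.14 (95% interval -0.68 to -0.07). It was -0.42 ± 0.17 in susceptible and -0.32 ± 0.18 in resilient mice, and -0.31 and -0.35 in libraries 1 to 15 and 17 to 47. Mcmdc2 (chromosome 1, 9908638 to 9942085), a gene of meiotic recombination, had 8.95 to 21.2 CPM (median 13.2) in defeated libraries and 16.0 to 24.3 CPM (median 18.8) in control libraries, with 9 of 11 defeated libraries below the lowest control and a log2 fold change of -0.46 ± 0.17. Oprd1 (chromosome 4, 132110726 to 132144486), the delta opioid receptor, had 14.9 to 28.4 CPM (median 20.5) in defeated libraries and 23.4 to 37.3 CPM (median 27.1) in control libraries, with a log2 fold change of -0.39 ± 0.17. These genes were near the background cover of the receptor genes, with a mean FPKM of 2.01 (Rpia), 1.29 (Mcmdc2) and 1.92 (Oprd1) times it.

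Immune and signalling genes on this side included C5ar2 (chromosome 7, 16234585 to 16244154), the second receptor for complement C5a. Its levels were 1.65 to 9.07 CPM (median 4.56) in defeated libraries and 6.12 to 9.55 CPM (median 8.95) in control libraries, and its log2 fold change was -0.60 ± 0.27. Irak1bp1 (chromosome 9, 82829540 to 82847687), a partner of the interleukin-1 receptor kinase, had a log2 fold change of -0.41 ± 0.17, and Rhpn1 (chromosome 15, 75704280 to 75715485), a scaffold protein gene, of -0.41 ± 0.18. Cd209e, a C-type lectin of myeloid cells, had 0.35 to 11.6 CPM (median 2.65) in defeated libraries and 4.07 to 5.99 CPM (median 5.34) in control libraries, with a log2 fold change of -0.86 ± 0.39, and its highest value came from susceptible replicate 6. Asns (chromosome 6, 7675169 to 7693254), asparagine synthetase, had 3.31 to 14.6 CPM (median 9.80) in defeated libraries and 9.77 to 18.7 CPM (median 13.3) in control libraries, with a log2 fold change of -0.50 ± 0.22. That of susceptible mice was -0.76 ± 0.24 and that of resilient mice -0.23 ± 0.26, and the difference of the outcomes had an unadjusted p of 0.0511 in edgeR's test. The mean FPKM was 1.91 times the background of the receptor genes for C5ar2 and 1.69 times for both Cd209e and Asns. For Irak1bp1 and Rhpn1 it was 2.21 and 2.17 times.

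The remaining 4 genes of smallest p were the mast cell protease gene Cma1 at -1.001 ± 0.40 log2, the serine protease gene Prss52 at -0.41 ± 0.19, the olfactory receptor gene Olfr314 at -0.82 ± 0.38 and Cyp4x1os, a transcript opposite Cyp4x1, at -0.87 ± 0.32. Olfr314 belongs to a multigene family whose members can share reads, and is of the kind of gene from which the background was read. Cyp4x1os cannot be told from its partner without the strand setting, so both genes are uncertain. The 2 directions differed in how far their genes stood above the background cover. All 12 genes on the higher side had a mean FPKM at least 2 times the background of the receptor genes (2.07 for Lcn2 to 13.7 for Hba-a1), against 4 of 12 on the lower side (1.14 for Olfr314 to 2.21 for Irak1bp1). Those 4 were Irak1bp1, Rhpn1, Prss52 and Rpia. The share of background in these values was not tested.

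Genes that define astrocytes had positive fold changes throughout. All 26 of 26 did, against 46.6% of all genes, with a median of 0.67 log2 and a range of 0.24 to 0.92; 1 of 26 had an unadjusted p under 0.05 (0.541% of all genes) and 0 passed the adjusted threshold. Gfap, the intermediate filament of astrocytes, had the smallest p, with 14.0 to 57.0 CPM (median 25.1) in defeated libraries and 14.4 to 21.3 CPM (median 17.4) in control libraries and a log2 fold change of 0.67 ± 0.28 (95% interval 0.07 to 1.27). Of the 11 defeated libraries, 8 lay above the highest control for Gfap. Aldh1l1, a folate enzyme used as a pan-astrocyte marker, had 90.8 to 265 CPM (median 139.9) in defeated libraries and 90.1 to 148 CPM (median 112) in control libraries, with a log2 fold change of 0.40 ± 0.21. Atp1b2, which carries the epitope used for capture, had 61.3 to 1117 CPM (median 372) in defeated libraries and 79.3 to 415 CPM (median 219) in control libraries, with a log2 fold change of 0.81 ± 0.51. The endfoot water channel Aqp4 had 26.7 to 548 CPM (median 146) in defeated libraries and 35.4 to 217 CPM (median 93.6) in control libraries, with a log2 fold change of 0.73 ± 0.55. The receptor Fgfr3 and the GABA-A receptor subunit Gabrg1 had log2 fold changes of 0.81 ± 0.44 and 0.47 ± 0.24. The groups overlapped for all 26 genes, and the defeated libraries reached further up and further down than the control libraries for Atp1b2, Aqp4, Slc1a3 and Fgfr3.

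The list's level depended on the library. Its mean log2 CPM ran from 5.37 to 8.56 in defeated and from 5.65 to 7.25 in control libraries. The within-group SD of that mean was 0.86, above the median fold change of 0.67. The signs of the 26 genes are therefore not independent observations. With the replicate number as a block, 12 of 26 genes had an unadjusted p under 0.05, where 2.84% of all genes did, against 1 of 26 without it; 0 were called, and the median was 0.56 log2. With resilient replicate 2 left out, the library highest for them (Aqp4 at 548 CPM), the median was 0.45 log2; with susceptible replicate 3 left out, it was 0.78. The background and the mitochondrial share differed between the same libraries, and the part of the mitochondrial share in the result was not tested. With the background percent as a covariate the median was 0.38 log2 with 26 of 26 positive. It was 0.70 among sample numbers 1 to 15 and 0.24 among numbers 17 to 47, with 26 of 26 positive in each. With the sample number itself as a covariate the median was 0.70, again with 26 of 26 positive. In that fit 9 of 26 had an unadjusted p under 0.05, where 3.66% of all genes did. The list's medians in susceptible and in resilient mice were 0.69 and 0.59 log2 over the shared controls. Summed over the list, libraries numbered 1 to 15 held 8034 to 20024 CPM in 5 defeated and 7539 to 8408 CPM in 2 control mice. Libraries numbered 17 to 47 held 2444 to 13134 CPM in 6 defeated and 3100.4 to 7591 CPM in 4 control mice.

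**Figure D3:**
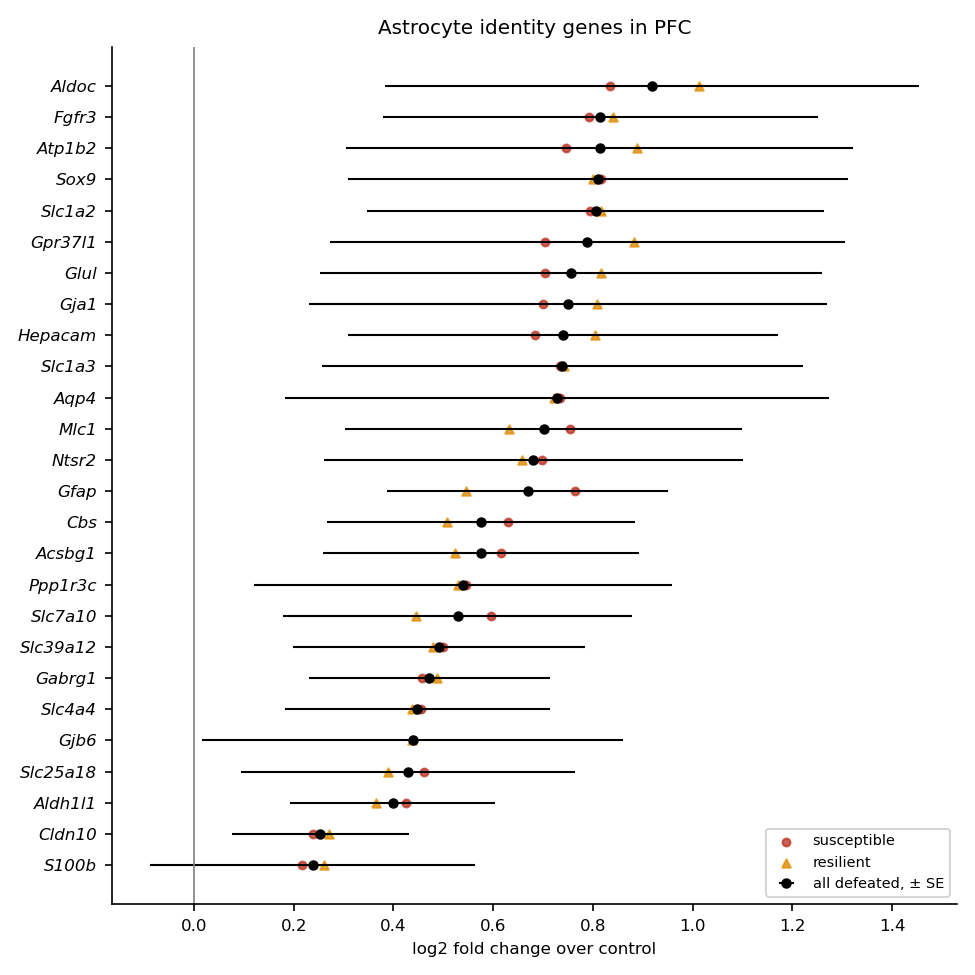
Log2 fold change over control of the 26 astrocyte identity genes in PFC, ordered by size. Black points with bars are all 11 defeated libraries against 6 control libraries with their standard error, red circles the susceptible and orange triangles the resilient libraries over the same controls. All 26 black points lie above 0, between 0.24 and 0.92, with standard errors of 0.18 to 0.55.

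Transcription factors that set and keep astrocyte fate showed the same sign, with 20 of 20 positive (46.6% of all genes) and a median of 0.50 log2. Of these, 2 had an unadjusted p under 0.05 (0.541% of all genes). Hes5, a Notch target, had 1.41 to 18.9 CPM (median 4.85) in defeated libraries and 1.35 to 3.79 CPM (median 3.02) in control libraries, with a log2 fold change of 1.24 ± 0.51. Otx1, a forebrain homeobox factor, had 8.13 to 39.1 CPM (median 15.6) in defeated libraries and 9.48 to 13.4 CPM (median 11.1) in control libraries, with a log2 fold change of 0.60 ± 0.27. Nfia, which starts astrocyte formation in development, was at 0.48 ± 0.25 log2, and Hes1, another Notch target, at 0.69 ± 0.36. The median of the list was 0.29 with the background covariate, and 0.53 and 0.17 in the lower and the higher sample numbers. With the mean of the astrocyte identity list as a covariate it was 0.040 (13 of 20 positive).

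Transporters that clear transmitters had mixed values. In the glutamate list 10 of 14 genes were positive, with a median of 0.29 log2 and none at an unadjusted p under 0.05. The main astrocyte glutamate transporter gene Slc1a2 (GLT-1) had 694 to 10981 CPM (median 3400.1) in defeated libraries and 1008 to 4094 CPM (median 2511) in control libraries, and its log2 fold change was 0.81 ± 0.46. Its partner Slc1a3 (GLAST) was at 0.74 ± 0.48 log2, glutamate dehydrogenase Glud1 at 0.69 ± 0.42 and the glutamine exporter Slc38a3 at 0.64 ± 0.39. Slc1a2 and Slc1a3 are also astrocyte identity genes. With that list's mean as a covariate the glutamate median was -0.048 (4 of 14 positive). For GABA handling 9 of 11 genes were positive, with a median of 0.23. Slc6a12, a betaine and GABA transporter, was the 1 gene of this list at an unadjusted p under 0.05, with 19.5 to 50.4 CPM (median 28.5) in defeated libraries and 19.2 to 28.3 CPM (median 20.3) in control libraries and a log2 fold change of 0.43 ± 0.18. It was 0.59 ± 0.19 in susceptible and 0.21 ± 0.20 in resilient mice, the highest library being susceptible replicate 6, of low depth, at 50.4 CPM. Slc6a11 (GAT-3) was at 0.46 ± 0.27.

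Endfoot and potassium-buffering genes were positive in 15 of 15 cases, with a median of 0.44 log2. With the mean of the astrocyte identity list as a covariate the median was -0.0086 (6 of 15 positive). The adhesion pair of the astrocyte endfoot, Mlc1 and Hepacam, had log2 fold changes of 0.70 ± 0.40 and 0.74 ± 0.43. Kcnj10, the potassium channel Kir4.1, had 43.6 to 249 CPM (median 118) in defeated libraries and 44.3 to 117 CPM (median 84.0) in control libraries, with a log2 fold change of 0.55 ± 0.34, which was -0.01 among sample numbers 17 to 47. Of 7 connexin and pannexin genes 5 were positive. Gjb2 (connexin 26) had 4.60 to 19.8 CPM (median 7.36) in defeated libraries and 3.78 to 9.15 CPM (median 4.26) in control libraries, with a log2 fold change of 0.85 ± 0.35, and all 11 defeated libraries stood above the control median. Gja1 (connexin 43), the main astrocyte connexin, was at 0.75 ± 0.52 and Panx1 at -0.23 ± 0.20. Mlc1, Hepacam and Gja1 are also astrocyte identity genes. With that list's mean as a covariate the median of the connexin and pannexin genes was -0.12 (2 of 7 positive).

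Genes of cholesterol and fatty acid synthesis, a product astrocytes pass to neurons on ApoE particles, were positive in 29 of 29 cases, with a median of 0.40 log2. Insig1, the sterol sensor that holds back synthesis, had 12.6 to 114 CPM (median 43.9) in defeated libraries and 11.7 to 42.4 CPM (median 25.3) in control libraries. Its log2 fold change was 0.80 ± 0.40, with 0.69 ± 0.46 in susceptible and 0.91 ± 0.48 in resilient mice, and the groups overlapped. The desaturase gene Scd1 was at 0.63 ± 0.34. The median of the list was 0.26 with the background covariate and 0.062 (22 of 29 positive) with the mean of the astrocyte identity list as a covariate. It was 0.48 (29 of 29 positive) and 0.13 (24 of 29) in the lower and the higher sample numbers. Lipoprotein genes were positive in 13 of 16 cases, with a median of 0.31; the carrier Clu was at 0.89 ± 0.54, the fatty acid carrier Fabp7 at 0.85 ± 0.48 and the receptor Lrp4 at 0.56 ± 0.28.

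Reactive astrocyte genes lay on both sides of 0. Of 29 tested, 19 were positive, the median was 0.06 log2, and the 2 at an unadjusted p under 0.05 were Lcn2 and Gfap, given above. Only 15 of the 29 had a mean FPKM at least 2 times background. The complement gene C4b had 10.6 to 36.97 CPM (median 17.9) in defeated libraries and 12.9 to 18.8 CPM (median 13.9) in control libraries, with a log2 fold change of 0.42 ± 0.23, with 0.58 ± 0.25 in susceptible and 0.20 ± 0.26 in resilient mice. Socs3, a brake on STAT3 signalling that reactive astrocytes also induce, had the opposite sign, at -0.58 ± 0.36. Engulfing receptors were among the higher values of the synapse list (16 of 20 positive, median 0.17). Axl had 37.1 to 149 CPM (median 73.4) in defeated libraries and 38.7 to 75.4 CPM (median 50.7) in control libraries, with a log2 fold change of 0.55 ± 0.27, and Mertk 137 to 787 CPM (median 377) in defeated libraries and 193 to 351 CPM (median 269) in control libraries, with a log2 fold change of 0.63 ± 0.31. Megf10, the third such receptor, was at 0.28 ± 0.18, and the glypican Gpc5 at 0.46 ± 0.25.

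Values of stress-linked signalling genes differed between lists. Of 20 glucocorticoid receptors and targets 18 were positive with a median of 0.26 log2, and the 1 at an unadjusted p under 0.05 was Hif3a. With 1 library left out the median ran from 0.15 (without control replicate 4) to 0.52 (without control replicate 2), and in sample numbers 17 to 47 it was 0.052 (15 of 20 positive). The sulfotransferase gene Sult1a1 was at 0.57 ± 0.35 and the metallothionein gene Mt1 at 0.75 ± 0.54. Immediate early genes, which follow recent cell activity, were positive in 7 of 23 cases with a median of -0.17; without control replicate 2 the median was 0.27. It was -0.57 (3 of 23 positive) in sample numbers 1 to 15, which hold that library, and 0.019 (13 of 23 positive) in 17 to 47. Nr4a3 was at -0.33 ± 0.20, Npas4 at -0.48 ± 0.36 and Ier3 at 0.71 ± 0.52. Control replicate 2 had 27.4 CPM of Npas4, a neuronal activity gene, where the other control libraries had at most 12.5 CPM. In the family of CREB, the cAMP-responsive factor, 11 of 15 genes were positive with a median of 0.10. That median was 0.031 (8 of 15 positive) with the background covariate and -0.064 (5 of 15) with the mean of the astrocyte identity list as a covariate. In sample numbers 1 to 15 and 17 to 47 it was 0.12 (12 of 15) and -0.0095 (7 of 15). Creb1 itself had 36.5 to 93.1 CPM (median 57.3) in defeated libraries and 39.9 to 75.9 CPM (median 47.2) in control libraries, with a log2 fold change of 0.19 ± 0.20 (95% interval -0.24 to 0.62), identical to 2 decimals in susceptible (0.19) and resilient mice (0.19). Atf2, Atf4 and the coactivator Crebbp were at 0.35 ± 0.27, 0.42 ± 0.51 and 0.23 ± 0.29. Of the neurotrophic list 11 of 19 were positive, with Vegfa, the vascular growth factor, at 0.86 ± 0.44.

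Transcripts of mitochondrial DNA were positive in 15 of 15 cases with a median of 0.60 log2. The median was 0.51 (15 of 15 positive) in sample numbers 1 to 15 and 0.042 (9 of 14 positive) in 17 to 47, and with 1 library left out it ran from 0.36 (without resilient replicate 2) to 0.94 (without control replicate 2). With the sample number as a covariate it was 0.75 (15 of 15 positive). In that fit 12 of 15 of these transcripts had an unadjusted p under 0.05, where 3.66% of all genes did. Their share of all counts was 1.87 ± 1.14% in defeated and 1.19 ± 0.712% in control libraries (SD, n = 11 and 6; exact permutation p = 0.193, Benjamini-Hochberg p = 0.29). Within sample numbers 1 to 15 the share ran from 2.12% to 3.70% in 5 defeated and from 1.87% to 2.27% in 2 control libraries, and within 17 to 47 from 0.564% to 2.20% in 6 defeated and from 0.502% to 0.930% in 4 control libraries. The ribosomal RNA gene mt-Rnr1 had 1361 to 13126 CPM (median 6916) in defeated libraries and 1073 to 6651 CPM (median 2131) in control libraries, with a log2 fold change of 0.84 ± 0.52. The 2 overlapping ATP synthase genes stood apart from the rest of the list, mt-Atp8 at 2.65 ± 1.15 and mt-Atp6 at 2.14 ± 1.01. They were low, with 0.0473 to 28.0 CPM (median 1.91) in defeated libraries and 0.0713 to 2.24 CPM (median 0.378) in control libraries for mt-Atp8 and the highest value in resilient replicate 3, a library of low depth. Their log2 fold changes were 1.43 ± 1.22 and 0.99 ± 1.03 in susceptible against 3.51 ± 1.22 and 2.92 ± 1.08 in resilient mice. Cytosolic ribosomal protein genes were positive in 55 of 56 cases with a median of 0.44, and nuclear respiratory chain genes in 39 of 39 with a median of 0.28. For the respiratory list the median was 0.069 (29 of 39 positive) with the background covariate, 0.21 (37 of 39 positive) in sample numbers 1 to 15 and -0.012 (17 of 39 positive) in 17 to 47. With 1 library left out it ran from 0.12 (without susceptible replicate 1) to 0.51 (without control replicate 2), and that of the ribosomal list from 0.20 (without susceptible replicate 1) to 0.72 (without control replicate 2). For the ribosomal list the median was 0.15 with the background covariate, and 0.25 and 0.04 in the lower and the higher sample numbers.

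**Figure D4:**
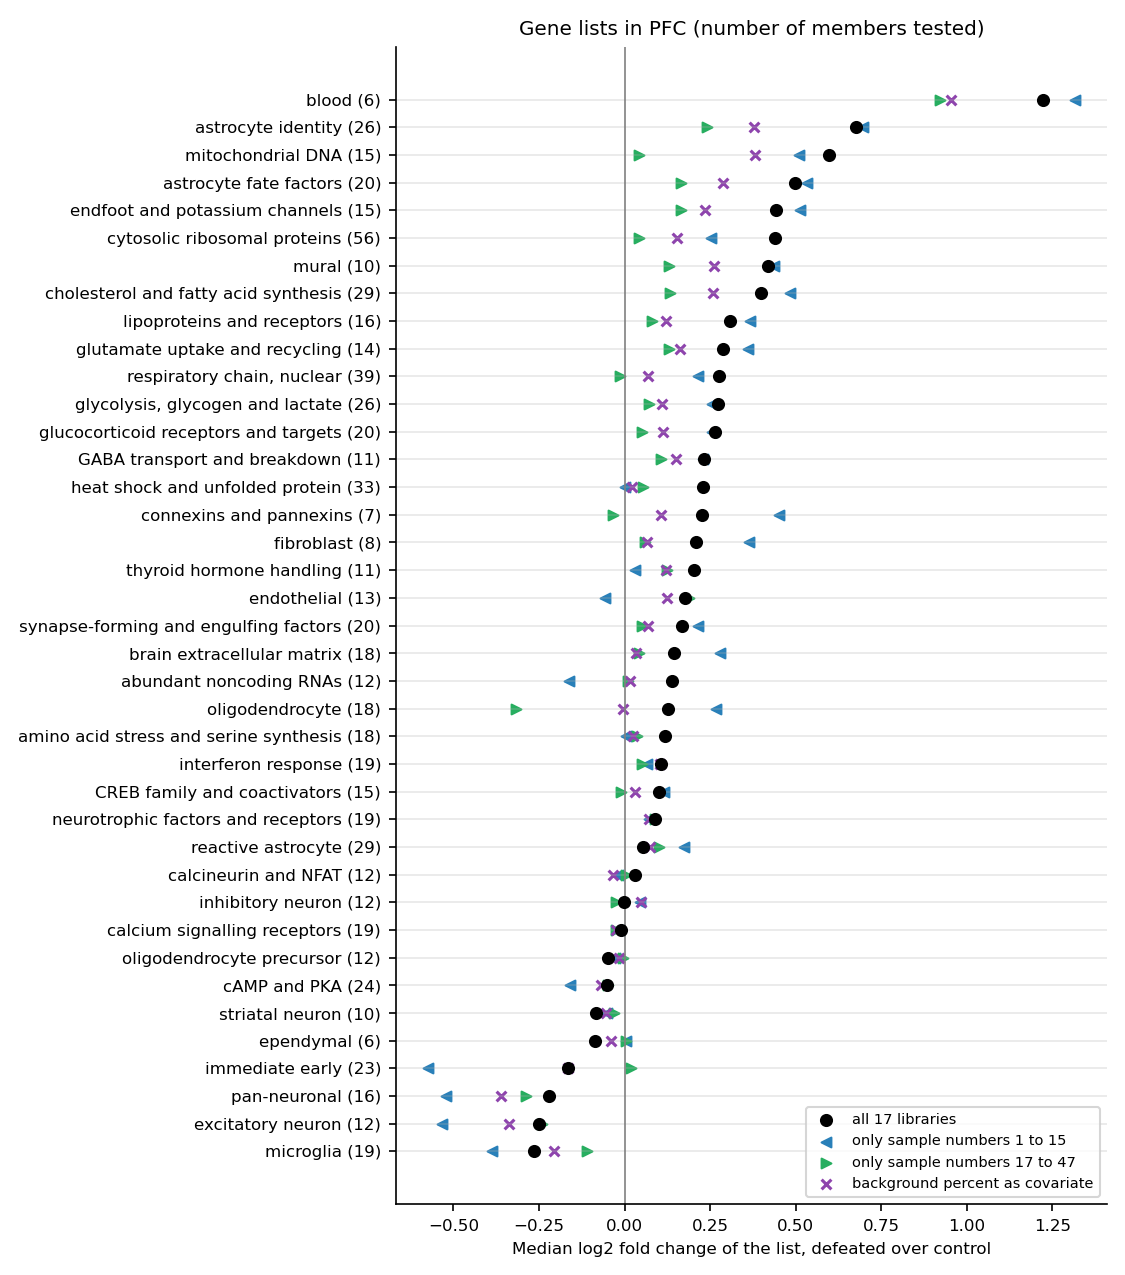
Median log2 fold change, defeated over control, of 39 gene lists in PFC, with the number of members tested in brackets. Black points are all 17 libraries, blue and green triangles the libraries with sample numbers 1 to 15 and 17 to 47, and purple crosses a fit with the background percent as a covariate. The astrocyte identity median is 0.67 over all libraries, 0.70 and 0.24 in the lower and the higher sample numbers and 0.38 with the covariate.

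Markers of other cell types ran in both directions, and none passed. Neuronal genes were mostly negative, with 3 of 16 pan-neuronal genes positive (median -0.22) and 1 of 12 excitatory genes (median -0.25). Slc17a7 had 12.4 to 215 CPM (median 29.8) in defeated libraries and 12.8 to 292 CPM (median 38.2) in control libraries, with a log2 fold change of -0.46 ± 0.69; the cortical factor Neurod6 was at -0.44 ± 0.55. Control replicate 2 held 292 CPM of Slc17a7, and without it the medians were 0.39 for pan-neuronal and 0.24 for excitatory genes. In sample numbers 17 to 47, which do not hold that library, they were -0.29 (2 of 16 positive) and -0.24 (0 of 12 positive). With the background covariate they were -0.36 (0 of 16 positive) and -0.34 (0 of 12 positive). Microglial genes were positive in 4 of 19 cases with a median of -0.27, which stayed between -0.36 and -0.17 with each library left out. The lectin Siglech had 1.27 to 10.3 CPM (median 7.95) in defeated libraries and 6.91 to 14.5 CPM (median 8.83) in control libraries, with a log2 fold change of -0.50 ± 0.28, the selectin ligand gene Selplg was at -0.43 ± 0.26 and the complement gene C1qb at -0.45 ± 0.29. Of these 19 genes 9 had a mean FPKM at least 2 times background.

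Oligodendrocyte genes were positive in 18 of 18 cases, but the median was only 0.13 log2 and changed with the libraries. With the background covariate it was -0.0039 (9 of 18 positive), and with 1 library left out it ran from 0.0094 (without control replicate 4) to 0.34 (without control replicate 2). It differed in sign between the sample numbers, at 0.27 (18 of 18 positive) in sample numbers 1 to 15 and -0.32 (0 of 18) in 17 to 47. Precursor genes were positive in 5 of 12 cases (median -0.05, up to 0.06 with 1 library left out, and above 0 without control replicate 5, resilient replicate 2 or susceptible replicate 1), and Olig2, a factor of that lineage, was at 0.83 ± 0.38 with an unadjusted p of 0.0409 in edgeR's test. A mean FPKM at least 2 times background was reached by 5 of the 12 precursor genes. Of vascular genes, mural cell genes were positive in 10 of 10 cases (median 0.42) and endothelial genes in 11 of 13 (median 0.18). The mural median was 0.26 with the background covariate, and 0.44 and 0.13 in sample numbers 1 to 15 and 17 to 47. For endothelial genes it was 0.12 with that covariate. In the same sample numbers the endothelial median was -0.056 (4 of 13 positive) and 0.19 (13 of 13 positive). The smooth muscle actin gene Acta2 (chromosome 19, 34241090 to 34255590) had 9.54 to 69.6 CPM (median 17.6) in defeated libraries and 9.40 to 20.2 CPM (median 12.9) in control libraries, and its fold change was 1.14 ± 0.31 log2 in susceptible and -0.12 ± 0.33 in resilient mice. The difference, 1.26 ± 0.34, had an unadjusted p of 0.00138 and did not pass adjustment (smallest adjusted p 1.00, edgeR with Benjamini-Hochberg). Susceptible replicate 1 alone had 69.6 CPM. The pericyte receptor Pdgfrb was at 0.55 ± 0.35 log2.

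Set against NAc, the defeat effect in PFC gave no gene whose difference passed the adjusted threshold. In 1 fit of all 39 libraries, 0 of 37512 genes (0.0%) passed for the difference PFC minus NAc by edgeR's quasi-likelihood test, and 1311 (3.49%) had an unadjusted p under 0.05. With consecutive PFC and NAc numbers as a random block in limma-voom, their correlation was 0.144, and 0 genes were called, with 2247 at an unadjusted p under 0.05 against 1612 in limma-voom without the block. The defeat effect in NAc alone gave 0 called genes and 731 (1.95%) at that unadjusted level. Astrocyte identity genes had a median of 0.67 log2 in PFC and of -0.32 in NAc, where 2 of 26 were positive; the median difference was 0.86, with 7 of 26 at an unadjusted p under 0.05. For oligodendrocyte genes the medians were 0.13 in PFC and -0.88 in NAc, and the median difference was 1.08, with 14 of 18 at that level. Their summed level ran from 892 to 5640 CPM over the 22 NAc libraries. Members of either list are not independent observations, and the fits that leave out 1 library were made for PFC only.

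The 4 named genes of smallest p for the difference were Cyp4x1os, Adamts4, Bcas1 and Osgin2. Adamts4 (chromosome 1, 171250421 to 171260637), a proteoglycan-cleaving protease that oligodendrocytes make, had a defeat effect of 0.15 ± 0.24 log2 in PFC and -0.99 ± 0.23 in NAc, a difference of 1.14 ± 0.35 (unadjusted p = 0.00229). Bcas1 (chromosome 2, 170346991 to 170427845), a marker of newly myelinating oligodendrocytes, was at 0.11 ± 0.12 in PFC and -0.46 ± 0.12 in NAc, a difference of 0.57 ± 0.18. Osgin2 (chromosome 4, 15997121 to 16013888), of the oxidative stress induced growth inhibitor family, was at 0.42 ± 0.24 in PFC and -0.42 ± 0.17 in NAc, a difference of 0.84 ± 0.26. Cyp4x1os (chromosome 4, 115133832 to 115137864) was at -0.87 ± 0.32 in PFC and 0.31 ± 0.23 in NAc, a difference of -1.16 ± 0.34. The PFC values come from the fit of the 17 PFC libraries and the NAc values and differences from the fit of all 39, so the first minus the second need not equal the third.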

How the data were processed

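The authors deposited whole-number counts per gene, made with featureCounts on build mm10 per the submitters' processing notes, and FPKM, which divide those counts by gene length and library total. Not given in the sources used here are the aligner, annotation, versions and strand setting. Per the labels' protocols, 500 pg of total RNA entered a stranded total RNA library kit. For 54229 of 54229 genes, the length that both tables imply matched the whole GENCODE M21 gene span (tolerance 1e-06 of it), so counts hold intronic reads. Of 55401 identifiers, 55141 had a name in that release, which also gives the mm10 coordinates.

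The test on counts was quasi-likelihood in edgeR 4.0.16 (R 4.3.3; trimmed-mean scaling, default count filter by group, robust dispersion, Benjamini-Hochberg adjustment, called under 0.05). CPM values use that scaling unless given of the library total, as are summed list levels. Intervals are 95% with 15 degrees of freedom, and the common coefficient of variation was 0.384. The background is the FPKM of 1478 receptor genes over 0.766, the FPKM of an even spread. Library measures were compared by exact permutation of 12376 splits in scipy 1.17.1. The fitting code was tested on simulated counts. The comparison, its 39 gene lists and the rules below were chosen with earlier results of these data known, so no list gets a test of its own.

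Genes are named if their average log2 CPM exceeds 1, leaving out predicted, clone-based and pseudogene symbols. As none passed, the 12 smallest unadjusted p in each direction were taken, with up to 4 members of smallest p of each list described, Atp1b2, Aldh1l1, Aqp4, Slc1a3 and Creb1, and 4 for the difference between regions. A few of the genes so chosen are not reported here. Alternatives were other scaling, count filters, DESeq2 1.42.0, limma-voom and limma-trend on log2(FPKM + 0.5) with limma 3.58.1, 3 groups, 1 outcome only, a replicate block, covariates (background, depth, astrocyte list, sample number, 2 surrogate variables of sva 3.50.0), genes above 2 times background, libraries above 2000000 counts, and each library left out. The fits by sample number 1 to 15 and 17 to 47 were added after the data were seen.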

Additional observations from a re-analysis of the deposited data

Results flagged for a closer look

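Single libraries far from the others of their group were looked for in the susceptible, resilient and control libraries of each gene named in the text. Of 306 groups, 32 held such a library. The rule's nominal rate is about 1 in 20 (5%). The groups share the same libraries and the genes were not chosen at random, so no excess over that rate can be read from this count. Values are CPM, followed by the nearest other library of the group.

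Resilient replicate 2, the library with the highest astrocyte level, accounted for 14 of them. It was highest for Aldh1l1 (264.6 against 131), Aqp4 (547.6 against 146), Gfap (57.0 against 22.6), Mlc1 (259 against 88.2), Megf10 (329 against 179), Sult1a1 (21.5 against 9.38) and Mt1 (303 against 86.3). The same held for Dio2, a thyroid hormone activating enzyme, at 303 against 98.2, Bag3, a chaperone partner, at 59.6 against 27.0, Phgdh, which starts serine synthesis, at 119.6 against 54.2, and Gys1, glycogen synthase, at 39.9 against 21.7. Aldoc, a glycolytic enzyme of astrocytes, stood at 1038 against 323 and Clu at 1386 against 452. The 1 low value of this library was Nr4a3 at 22.5 against 33.3.

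Susceptible replicate 1, the library with the lowest background at 13.4%, was highest in its group for neuronal genes, with Slc17a7 at 215 against 44.1, Neurod6 at 25.4 against 5.29 and Npas4 at 20.1 against 8.07. It was also highest for Acta2 at 69.6 against 24.8, Sult1a1 at 20.8 against 9.92 and the haemoglobin gene Hbb-bt at 5.42 against 2.00. Resilient replicate 1 was highest for Hba-a1 at 22.9 against 7.16, Lcn2 at 6.36 against 2.77 and Npas4 at 14.9 against 7.11.

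Susceptible replicate 2 was highest for Lcn2 at 7.45 against 3.31 and Ier3 at 4.31 against 1.302, and susceptible replicate 6 for Cd209e at 11.6 against 3.14 and Slc6a12 at 50.4 against 35.7. Resilient replicate 3 was lowest for Trp53i13 at 3.18 against 6.98, and resilient replicate 4 highest for C5ar2 at 9.07 against 4.56. Among controls, replicate 2 was highest for Npas4 at 27.4 against 12.5 and Prss52 at 12.7 against 8.75, and replicate 1 for Fabp7 at 19.8 against 8.88.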

How the results depend on the processing

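The count of 0 called genes for defeated against control held in all 37 other fits of the same comparison. A looser threshold (fold above 1.3, unadjusted p under 0.05) took 160 genes. The number at an unadjusted p under 0.05 was 170 in the reported fit and ran from 56 with the depth covariate to 1150 with the sample number covariate; it was 960 without a count filter, 735 with the background covariate, 520 with 2 surrogate variables, 253 in sample numbers 1 to 15, and 74 (without control replicate 4) to 447 (without susceptible replicate 3) with 1 library left out. The cause of this range was not tested. For the difference between regions the count of called genes was 0 in each alternative run.

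Same-numbered control and defeated libraries deviated together (correlation over 0.1) in 5 of 6 susceptible and 5 of 5 resilient pairs (genes above 1 log2 CPM), the lowest being 0.0242 and 0.212. Above 3 log2 CPM it was 6 of 6 and 5 of 5, the lowest being 0.151 and 0.409. At the first level 1 of 6 and 3 of 5 correlated best with their own number, and no label ties the numbers to a shared day or litter, so whether they pair the libraries is not settled. With the replicate block 0 genes were called and 892 (2.84% of all genes) had an unadjusted p under 0.05, against 0.541% without it. Among them were 12 of 26 astrocyte identity, 8 of 20 fate and 9 of 29 cholesterol genes, against 1, 2 and 1 without the block.

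Of 3647 values of the 99 named genes under alternatives, 3616 had the reported sign, and none of these genes was called in any. With the astrocyte list covariate the log2 fold change was -0.22 for Aqp4, -0.045 for Slc1a3, -0.014 for Atp1b2, -0.11 for Gja1, -0.16 for Mt1, -0.26 for Atf4, -0.10 for Crebbp, -0.28 for Dio2, -0.14 for Slco1c1, -0.044 for Grm3, -0.0093 for Ncan, -0.0052 for Clu, -0.0049 for Creb1 and -0.00058 for Aldoc. Aqp4, Slc1a3, Atp1b2, Gja1 and Aldoc are in that list, so the covariate holds their own level by construction; for the other genes and settings below the cause was not tested. With 2 surrogate variables it was -0.0093 for Aqp4, -0.092 for Atf4, -0.025 for Crebbp, -0.12 for Dio2, -0.051 for Slco1c1 and -0.042 for Adamts4. With the depth covariate it was -0.077 for Adamts4, -0.00594 for Creb1 and -0.047 for Rmrp, and with limma-voom -0.10 for Adamts4. In sample numbers 17 to 47 it was -0.21 for Adamts4, -0.021 for Bcas1, -0.010 for Kcnj10 and 0.019 for Nr4a3, and in resilient mice alone -0.10 for Acta2. With 1 library left out, Slc17a7 ran from -0.84 to 0.42 and Neurod6 from -0.88 to 0.10, both highest without control replicate 2.

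Of 429 list medians under 11 alternatives, 50 had the opposite sign to the reported one, 21 of them with the astrocyte list covariate. With that covariate the medians were -0.082 (14 of 56 positive) for ribosomal, -0.13 (8 of 39 positive) for respiratory, -0.0086 (6 of 15 positive) for endfoot, -0.053 (6 of 26 positive) for glycolysis, -0.16 (7 of 33 positive) for heat shock and -0.11 (2 of 18 positive) for oligodendrocyte genes. In sample numbers 17 to 47, 6 of 39 medians had the opposite sign, and with the background covariate 3 of 39. With the sample number covariate 1 of 39 had it. In that fit 10 of 29 cholesterol and 11 of 56 ribosomal genes had an unadjusted p under 0.05, where 3.66% of all genes did. The pan-neuronal and immediate early medians were -0.078 and -0.014 in it. With 1 library left out, 34 of 39 medians moved by over 1.5 times and 11 changed sign; 25 were highest without control replicate 2 and 15 lowest without susceptible replicate 1. Depth limits genes of a few CPM most in susceptible replicate 6 and resilient replicate 3, with 1222948 and 1603943 counts.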

Other observations

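Further lists describe astrocyte metabolism and matrix. Genes of glycolysis, glycogen and lactate export were positive in 24 of 26 cases with a median of 0.27 log2. Aldolase C (Aldoc) was at 0.92 ± 0.53 with 37.1 to 1038 CPM (median 289.6) in defeated libraries and 55.6 to 316 CPM (median 161) in control libraries, glycogen phosphorylase (Pygb) at 0.54 ± 0.34 and glycogen synthase (Gys1) at 0.37 ± 0.21. Aldoc is also an astrocyte identity gene. The brain matrix list was positive in 13 of 18 cases with a median of 0.14, and its proteoglycan genes Cspg5, Bcan and Ncan were at 0.80 ± 0.47, 0.73 ± 0.45 and 0.68 ± 0.45. In the list of amino acid stress and serine synthesis (11 of 18 positive, median 0.12), the serine enzymes Phgdh, Psat1 and Psph were positive at 0.47 ± 0.27, 0.33 ± 0.22 and 0.27 ± 0.18, while Asns was at -0.50 ± 0.22. Thyroid hormone genes were positive in 10 of 11 cases (median 0.20), with the activating deiodinase Dio2 at 0.50 ± 0.50 and the transporter Slco1c1 at 0.49 ± 0.42. With 1 library left out the glycolysis median ran from 0.12 (without resilient replicate 2) to 0.57 (without control replicate 2), the matrix median from 0.058 (without susceptible replicate 1) to 0.26 (without control replicate 2), the amino acid median from 0.026 (without control replicate 4) to 0.19 (without control replicate 1) and the thyroid median from 0.13 (without control replicate 3) to 0.41 (without control replicate 2). None of these genes passed the adjusted threshold (edgeR, Benjamini-Hochberg).

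Heat shock and unfolded protein genes were positive in 28 of 33 cases (median 0.23). With 1 library left out that median ran from 0.039 (without susceptible replicate 1) to 0.55 (without control replicate 2); it was 0.0003 (17 of 33 positive) in sample numbers 1 to 15 and 0.023 (22 of 33 positive) with the background covariate. The chaperone partner Bag3 was at 0.44 ± 0.22 and the endoplasmic reticulum isomerase Pdia4 at 0.57 ± 0.38. The receptors of calcium signalling were positive in 9 of 19 cases (median -0.01), with endothelin receptor B (Ednrb) at 0.58 ± 0.34 and the metabotropic glutamate receptor Grm3 at 0.48 ± 0.36. For cAMP and PKA 7 of 24 were positive (median -0.05), for calcineurin and NFAT 6 of 12 (median 0.03) and for the interferon response 12 of 19 (median 0.11). Inhibitory and striatal neuron genes had medians of -0.0022 and -0.08, fibroblast and ependymal genes 0.21 and -0.09. In these 4 lists 1 of 12, 4 of 10, 4 of 8 and 1 of 6 genes had a mean FPKM at least 2 times background. The same held for 10 of 19 calcium, 16 of 24 cAMP, 6 of 12 calcineurin and 8 of 19 interferon genes. Noncoding RNAs were positive in 6 of 12 cases (median 0.14), with the paraspeckle RNA Neat1 at 0.61 ± 0.30 and the small RNA Rmrp at 0.92 ± 0.63. With single libraries left out, the sign of several of these medians changed. The cAMP median was 0.15 without control replicate 2, and without susceptible replicate 1 the fibroblast, ependymal and noncoding medians were -0.0092, 0.015 and -0.042. The noncoding median was also below 0 without control replicate 4. The calcium, calcineurin and inhibitory neuron medians changed sign in 8, 6 and 6 of the 17 fits that leave out 1 library, ranging from -0.064 to 0.072, from -0.046 to 0.17 and from -0.078 to 0.043.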
